A study of Homo sapiens with 6 samples.

Results

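The respiratory chain genes are the nuclear genes whose products make up the 5 complexes of oxidative phosphorylation, the electron carrier cytochrome c, and the factors that assemble the complexes. They were taken from the bead array by symbol: probes named NDUF, SDHA to SDHD, UQCR, COX followed by a digit or ATP5, together with CYC1 and CYCS. This rule found 155 of the 47231 probes outside the control rows, under 106 array symbols. Of these symbols, 84 stand for subunits or subunit isoforms, 12 for assembly factors, 7 for pseudogenes and near-identical copies, and 3 for other genes. These 3 are COX4NB (now EMC8), which only shares the letters, ATP5S (now DMAC2L), a coupling factor of complex V, and ATP5SL (now DMAC2), a protein of complex I assembly, and they were counted apart. Present RefSeq symbols are used below, so ATP5A1 is ATP5F1A, ATP5B is ATP5F1B, ATP5C1 is ATP5F1C, ATP5E is ATP5F1E, and ATP5G1 to ATP5G3 are ATP5MC1 to ATP5MC3.

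The study treated MDA-MB-231, a human triple-negative breast cancer cell line, with riluzole at 25 µM or with its solvent DMSO (vehicle), and measured RNA on 3 bead arrays per group. Riluzole is a benzothiazole drug given to slow amyotrophic lateral sclerosis. Treatment lasted 24 h by the sample labels and overnight by the series title. The labels do not say that the 3 samples of a group were separate cultures, so p-values measure only how far these samples spread, and that spread may be technical.

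Complexes I and II pass electrons from NADH and succinate to ubiquinone, complex III passes them on to cytochrome c, and complex IV passes them to oxygen, while complex V uses the proton gradient that I, III and IV build to make ATP. Most subunits are encoded in the nucleus and must be matched by a few that mitochondrial DNA encodes, which is why a large group of assembly factors inserts haem, copper, flavin and iron-sulphur clusters in a set order. Complex II is the one complex made only of nuclear subunits and it is also an enzyme of the tricarboxylic acid cycle. Many nuclear chain genes carry binding sites for NRF1 or for ETS-family factors such as GABPA close to their start.

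Between 20516 and 20959 probes were detected per array (detection p under 0.05), and the median raw signal lay between 126.7 and 132.9. All 5 markers of this mesenchymal line (VIM, CD44, AXL, MSN and CAV1) were detected on all 6 arrays, VIM at 40510 to 47699 raw units. ESR1, PGR, the leukocyte marker PTPRC and the striated muscle marker MYH7 were detected on none, and CDH1 on 1. ERBB2 (1311 to 1478), GATA3 (210 to 254), the endothelial marker PECAM1 (185 to 263) and the hepatocyte marker ALB (461 to 586) were detected on all 6, and COL1A1 on 3. In RNA from whole cultures, fewer cells of a kind and less RNA per cell cannot be told apart.

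Promoter windows are shown, for the assembly factor that passed the test and for subunits of complexes II and III described below. Each is the 250 bases before the gene's start in the RefSeq table (GRCh38.p14), read 5′ to 3′ along the gene. Capitals mark matches on either strand to the NRF1 consensus (GCGCA and GCGC with any 1 base between them) or to CCGGAAG, an ETS core. The COX19 window (chr7:975550-975799, minus strand) held no match, which says only that these letters are not in it. SDHA (chr5:218070-218319, plus strand) held 4 NRF1 matches that begin at -166, -117, -68 and -19 from the start. SDHD (chr11:112086623-112086872, plus strand) held an NRF1 match at -110 and an ETS match at -77, UQCRC1 (chr3:48609647-48609896, minus strand) an NRF1 match and UQCRH (chr1:46303448-46303697, plus strand) an ETS match.
COX19: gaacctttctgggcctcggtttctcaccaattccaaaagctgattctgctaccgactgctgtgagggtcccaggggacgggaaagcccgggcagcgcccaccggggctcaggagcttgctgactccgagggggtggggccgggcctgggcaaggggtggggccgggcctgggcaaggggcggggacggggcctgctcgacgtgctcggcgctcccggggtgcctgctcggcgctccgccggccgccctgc
SDHA: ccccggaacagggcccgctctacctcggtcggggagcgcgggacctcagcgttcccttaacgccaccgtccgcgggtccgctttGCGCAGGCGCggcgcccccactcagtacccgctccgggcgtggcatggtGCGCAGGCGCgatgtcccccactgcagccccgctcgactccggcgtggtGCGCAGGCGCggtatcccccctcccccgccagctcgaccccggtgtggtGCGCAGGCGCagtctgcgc
SDHD: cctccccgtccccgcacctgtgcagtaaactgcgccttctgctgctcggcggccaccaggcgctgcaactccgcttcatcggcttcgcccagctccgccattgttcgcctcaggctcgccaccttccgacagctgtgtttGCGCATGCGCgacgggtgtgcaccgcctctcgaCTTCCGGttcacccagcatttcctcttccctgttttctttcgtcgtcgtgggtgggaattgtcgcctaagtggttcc
UQCRC1: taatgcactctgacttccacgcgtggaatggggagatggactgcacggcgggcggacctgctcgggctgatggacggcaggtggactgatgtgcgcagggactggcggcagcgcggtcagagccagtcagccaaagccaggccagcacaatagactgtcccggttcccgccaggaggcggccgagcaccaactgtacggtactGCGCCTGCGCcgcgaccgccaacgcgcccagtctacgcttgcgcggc
UQCRH: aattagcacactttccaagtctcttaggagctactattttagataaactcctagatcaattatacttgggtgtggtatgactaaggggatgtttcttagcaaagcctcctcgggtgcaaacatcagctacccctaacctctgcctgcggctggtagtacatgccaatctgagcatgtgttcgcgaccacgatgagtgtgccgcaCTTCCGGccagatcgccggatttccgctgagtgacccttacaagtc
Over all 27305 genes of that table, 6.2% held the NRF1 letters and 10.2% the ETS letters. Of the 96 subunits and assembly factors, 79 had a window in it, and 16 of these (20.3%) held the NRF1 letters and 21 (26.6%) the ETS letters. The YY1 letters AAGATGGC, searched on both strands in the same way, were found in 1 of the 79 (1.27%), ATP5PF, and in 1.64% of all genes. The NRF1 letters were in 2 of 3 windows for complex II (SDHA and SDHD), 3 of 6 for complex III, 3 of 11 for complex V, 5 of 32 for complex I and 1 of 15 for complex IV. The ETS letters were in 2, 3, 3, 5 and 4 of the same windows. A match is a description of the letters and not a measured binding site.

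Of the 106 members, 97 had a probe above background and were tested. Fitted with limma across all 14887 genes, 1 of the 97 passed an adjusted p of 0.05, against 1.18% of all genes tested, so the members' share was near the background. That gene was the complex IV assembly factor COX19, which was higher with riluzole, a direction in which 0.752% of all genes passed (0.43% passed as lower). At an unadjusted p under 0.05, 8 members (8.25%) stood out, 5 higher and 3 lower, against 16.3% of all genes (8.87% higher and 7.45% lower). The 3 arrays of one group lay wholly above those of the other for 18 members (18.6%), against 22.7% of all genes, with 5 higher and 13 lower with riluzole against 11.8% and 11% of all genes. Median scaling gave 2 higher and 14 lower, 16 in all (16.5% of members against 20.7% of all genes). The authors' processed values gave 2 higher and 10 lower, 12 in all (12.4% of members against 21.9% of all genes). Counted by sign alone, 53.7% and 50.3% of all genes were below 0 under these settings, against 49.8% in the main fit. For these settings no non-overlap share of all genes by direction is given.

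The respiratory chain RNAs also differed little in size. The median log2 fold change was -0.02 over the 97 members and 0.00 over all genes, and the median size without sign was 0.07 against 0.14. For 88 of the 97 members (90.7%) the 95% confidence interval of the change lay within 1.5-fold either way, which held for 71.8% of all genes, and for 96 it lay within 2-fold. The exception to the wider bound was COX19. Most chain genes gave bright, closely repeated signals: the median SD between arrays of a group was 0.10 for vehicle and 0.09 for riluzole on the log2 scale, against 0.15 and 0.14 over all genes. Among the 60 members with a mean log2 intensity of 12 or more, all 60 intervals lay within 1.5-fold and the median size was 0.06, against 90.5% and 0.09 for the 1885 genes of that brightness. These bounds limit how large a change of the bright subunit RNAs could have been in these samples, and do not show that there was none.

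**Figure D1:**
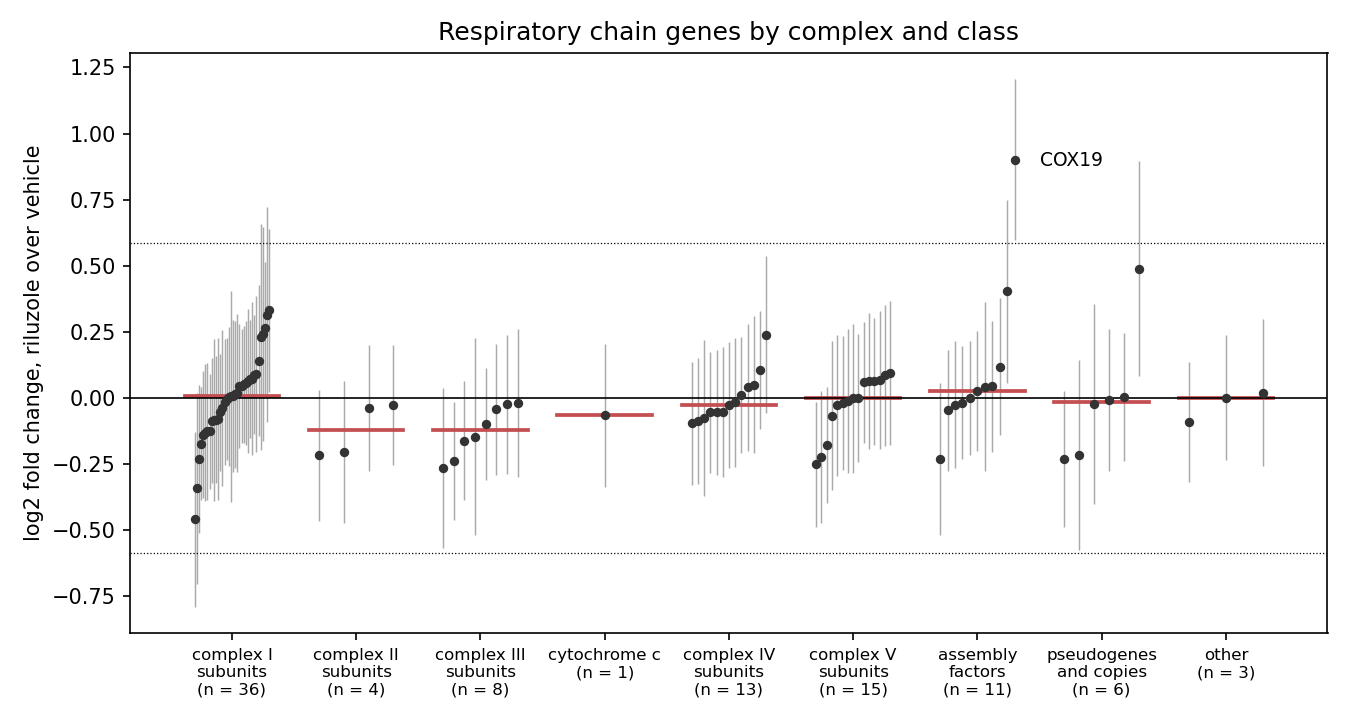
Log2 fold change (riluzole over vehicle, vertical axis) of each tested respiratory chain gene, 1 point per gene, with complexes and classes on the horizontal axis and dotted lines at 1.5-fold either way. COX19, at 0.90 among the complex IV assembly factors, is the 1 gene past the adjusted threshold, and all 12 member subunits of complexes II and III lie below 0.

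The assembly factors COX19 and NDUFAF1 had the largest upward changes among the members that code for chain or assembly proteins, and only COX19 passed the test. By size without sign, the subunit NDUFS1 (-0.46) exceeded NDUFAF1 (0.40). COX19 is a small copper-binding protein of the mitochondrial intermembrane space that is needed to build cytochrome c oxidase. Its log2 intensity was 6.80, 6.60 and 6.98 in the vehicle arrays and 7.60, 7.62 and 7.86 in the riluzole arrays. The raw signals were 208.7, 188.2 and 218.5 against 274.1, 302.5 and 317.0, on arrays whose negative control probes averaged 106.5 to 111.3. Every riluzole array was thus above every vehicle array, by more than the distance between arrays of a group. The means were 6.79 ± 0.19 and 7.69 ± 0.14 (SD, n = 3 each), a log2 fold change of 0.90 (SE 0.13, 95% CI 0.60 to 1.21, limma adjusted p = 0.0278), or 1.87-fold. The array has 1 probe for COX19 and the size of the change depended on the background step: without background correction it was 0.56 (adjusted p = 0.00455). Leaving out any 1 of the 6 arrays kept the direction, with log2 fold changes of 0.80 to 1.00, but took the adjusted p to between 0.0655 and 0.0885, in fits where all genes together gave 21 to 41 calls in place of 176.

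The other copper and haem factors of complex IV did not pass the test. COX17, the chaperone that hands copper to the assembly machinery, had a log2 fold change of -0.04 (95% CI -0.27 to 0.18, adjusted p = 0.879) in limma, and COX11, which delivers copper to subunit 1, of 0.04 (95% CI -0.20 to 0.29). Their intervals did not reach the interval of COX19, although the difference between probes was not tested. COX10 and COX15 make haem A in consecutive steps. COX10 gave 9.91, 9.69 and 9.73 with vehicle and 9.82, 10.03 and 9.83 with riluzole, a difference of 0.12 (adjusted p = 0.671), and COX15 gave 7.84, 8.17 and 8.04 with vehicle against 7.69, 7.75 and 7.92 with riluzole, a difference of -0.23 (adjusted p = 0.414). Both pairs of groups overlapped. COX18, which inserts subunit 2 into the membrane, was not detected on any array. For COX16 the brightest kept probe carries another array name and stood at -0.03, while the probe named COX16 stood at -0.47 (95% CI -0.88 to -0.05, adjusted p over all probes = 0.263) and was detected on 3 of 6 arrays.

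NDUFAF1, a factor of the complex that builds the membrane arm of complex I, was the other assembly factor whose groups did not overlap. Its log2 intensity was 9.79, 9.92 and 9.41 with vehicle and 10.12, 9.98 and 10.23 with riluzole. All 3 riluzole arrays were above the vehicle arrays, the highest of which was within 0.1 of the lowest riluzole array. The difference of 0.40 (95% CI 0.06 to 0.75) had an adjusted p of 0.232 in limma and did not pass. NDUFAF2 stood at 0.04 and NDUFAF3 at 0.03. The complex II factors SDHAF1, which serves the iron-sulphur subunit SDHB, and SDHAF2, which puts the flavin into SDHA, stood at -0.02 (95% CI -0.23 to 0.20) and 0.00 (95% CI -0.21 to 0.22). Over the 11 assembly factors tested of 12, 7 were above 0 and 4 below, with a median of 0.03.

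**Figure D2:**
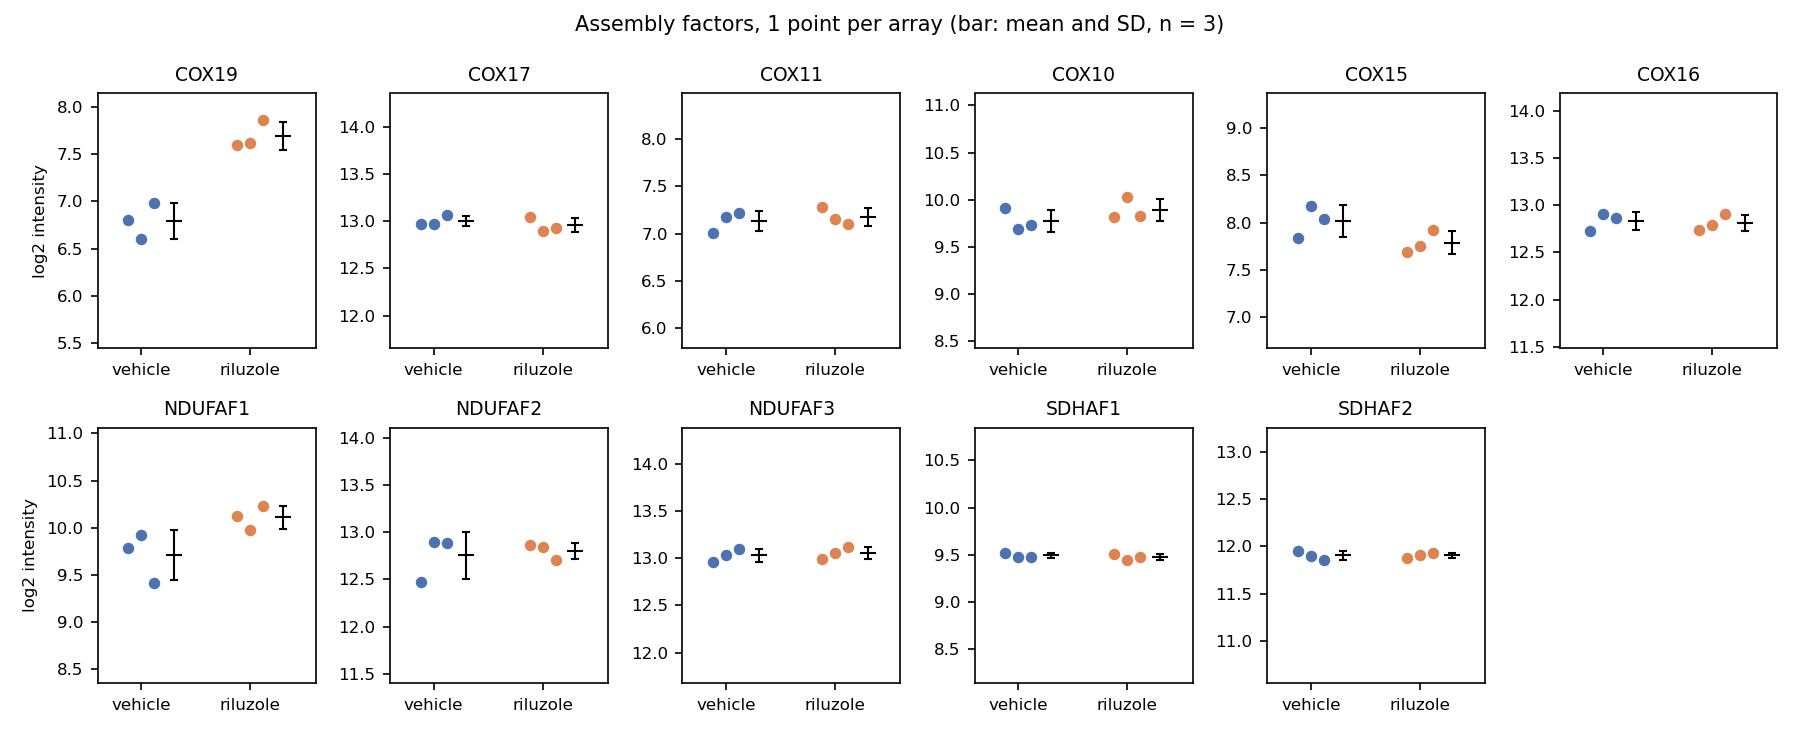
Log2 intensity on each array (vertical axis, 1 point per array, bars at the group mean with its SD) for the respiratory chain assembly factors, vehicle beside riluzole, every panel spanning the same number of log2 units. The 3 riluzole points of COX19 (7.60 to 7.86) lie above its vehicle points (6.60 to 6.98), and NDUFAF1 is the other panel in which the groups do not overlap.

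No subunit of any complex passed the test in limma: 0 of 77 tested, with 5 at an unadjusted p under 0.05 (2 higher, 3 lower). Their median was -0.02, 32 stood above 0 and 45 below, and 71 of the 77 intervals lay within 1.5-fold and all 77 within 2-fold.

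Complex I was measured by 36 of its 37 member subunits. Their changes centred on 0.01, with 20 above 0 and 16 below. The core subunits are shared with bacteria and include those that carry the flavin, the iron-sulphur clusters and the ubiquinone site. NDUFS1, the large iron-sulphur subunit, had log2 intensities of 7.04, 7.09 and 7.22 with vehicle and 6.94, 6.59 and 6.44 with riluzole. The riluzole arrays were all lower, one of them by only 0.1, and the difference of -0.46 (95% CI -0.79 to -0.13, adjusted p = 0.169) did not pass. NDUFS8, another iron-sulphur subunit, gave 14.28, 14.18 and 14.24 with vehicle against 14.35, 14.61 and 14.54 with riluzole, groups that did not overlap, with a difference of 0.27 (95% CI 0.02 to 0.51, adjusted p = 0.273).

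Other core subunits lay closer to 0. NDUFV2 stood at -0.23 (95% CI -0.51 to 0.05), NDUFS3 at -0.17 (95% CI -0.38 to 0.04) with groups that did not overlap, NDUFS7 at 0.14 and the NADH-binding NDUFV1 at 0.01. NDUFS1, the widest of these, had low raw signals, and whether its difference goes with signal was not tested.

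Among accessory subunits, which surround the core and stabilise it, the values named here were picked after they were seen, apart from NDUFA1. NDUFB1 of the membrane arm gave 8.21, 7.72 and 7.64 with vehicle and 7.42, 7.54 and 7.59 with riluzole, without overlap, and a difference of -0.34 (95% CI -0.70 to 0.02, adjusted p = 0.335). NDUFV3 gave 8.30, 8.11 and 8.24 with vehicle against 8.20, 8.47 and 8.92 with riluzole, a difference of 0.31 (95% CI -0.09 to 0.72), with 1 riluzole array inside the vehicle range. That is its brightest probe, and its other kept probe stood at 0.04 (95% CI -0.57 to 0.65). NDUFA1, a small membrane subunit encoded on the X chromosome, stood at -0.09 (95% CI -0.32 to 0.15). Also without overlap were NDUFA2 at 0.09, NDUFA9 at -0.14 and NDUFB2 at -0.13, all of them within 0.15 of 0. NDUFA5 and NDUFB4 were detected on 4 and 3 of the 6 arrays, and NDUFS6 on none, at raw signals of 69.7 to 91.7 that lie below the mean of the negative controls.

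**Figure D3:**
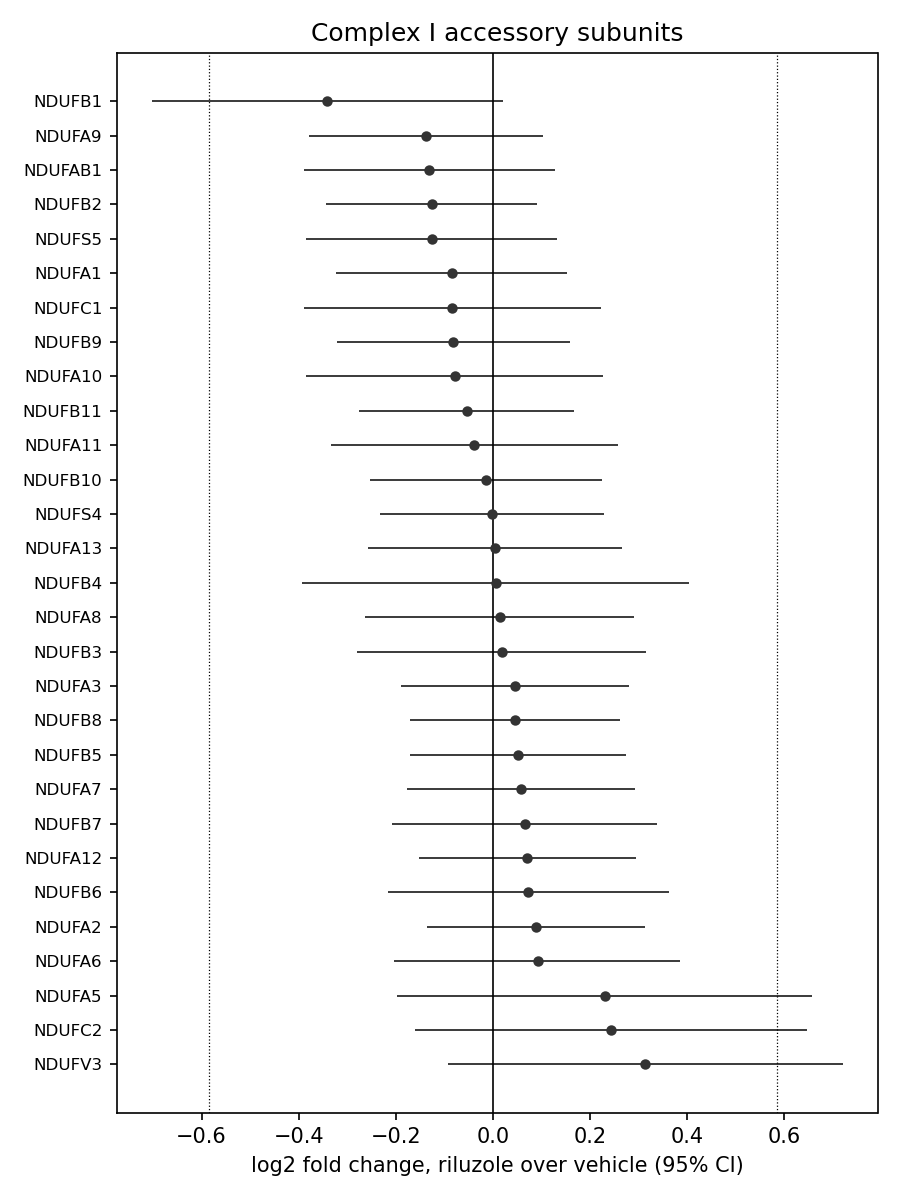
Log2 fold change (horizontal axis, riluzole over vehicle) with its 95% confidence interval for the 29 tested accessory subunits of complex I, with dotted lines at 1.5-fold either way. NDUFB1 at -0.34 and NDUFV3 at 0.31 mark the ends, and most of the others lie within 0.15 of 0.

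All 4 subunits of complex II stood below 0, and none passed the test. SDHA, the flavoprotein that oxidises succinate, gave 11.86, 11.60 and 11.79 with vehicle and 11.51, 11.50 and 11.58 with riluzole. Each riluzole array was below each vehicle array, though vehicle replicate 2 was within 0.1 of the highest of them. The difference was -0.22 (95% CI -0.47 to 0.03, adjusted p = 0.372), and a second SDHA probe gave -0.17 (95% CI -0.43 to 0.10). SDHB, the iron-sulphur subunit, gave 13.05, 12.86 and 12.99 with vehicle against 12.99, 12.84 and 12.96 with riluzole, overlapping groups with a difference of -0.04 (95% CI -0.28 to 0.20).

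The membrane anchors SDHC and SDHD bind ubiquinone. SDHD gave 12.44, 12.56 and 12.33 with vehicle and 12.37, 12.26 and 12.09 with riluzole, a difference of -0.20 (95% CI -0.47 to 0.07, adjusted p = 0.447) with groups that overlapped. For SDHC the probes disagreed in size: the brightest stood at -0.03 (95% CI -0.25 to 0.20) and the other at -0.35 (95% CI -0.60 to -0.10, adjusted p over all probes = 0.187), where the groups did not overlap. The 4 complex II intervals all lay within 1.5-fold, and the median was -0.12. With the mean of the kept probes in place of the brightest one, that median was -0.19.

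All 8 subunits of complex III that the symbol rule reached also stood below 0, with a median of -0.12 and none past the test in limma (1 at an unadjusted p under 0.05). CYC1, the haem protein cytochrome c1 that hands electrons to cytochrome c, gave 13.83, 13.70 and 13.73 with vehicle and 13.47, 13.54 and 13.54 with riluzole. The riluzole arrays were all lower, and the difference of -0.24 (95% CI -0.46 to -0.02, adjusted p = 0.274) did not pass. UQCRH, the hinge protein beside cytochrome c1, gave 14.55, 14.51 and 14.41 with vehicle against 14.27, 14.35 and 14.37 with riluzole, without overlap, and a difference of -0.16 (95% CI -0.39 to 0.07, adjusted p = 0.48). Its second kept probe stood at -0.055 (95% CI -0.44 to 0.33), with groups that overlapped. UQCRFS1, the Rieske iron-sulphur protein that passes electrons on to cytochrome c1, gave 14.07, 14.04 and 14.02 with vehicle against 13.95, 13.93 and 13.95 with riluzole, again without overlap, and a difference of -0.10 (95% CI -0.31 to 0.11).

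UQCRB, a small subunit near the ubiquinone site, had the widest difference of complex III by its brightest probe, at -0.26 (95% CI -0.56 to 0.04, adjusted p = 0.373), with groups that overlapped. Its other kept probes stood at 0.04 and -0.04, so the UQCRB probes did not show one value. The core proteins UQCRC1 and UQCRC2 stood at -0.04 (95% CI -0.29 to 0.21) and -0.15 (95% CI -0.52 to 0.23), and the small subunits UQCRQ and UQCR11 at -0.02 and -0.02. UQCRHL, an intronless copy of UQCRH whose probe may share target RNA with it, stood at -0.23 (95% CI -0.49 to 0.03) without overlap, and is not counted among the subunits.

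Complexes II and III together gave 12 of 12 member subunits below 0, against 49.8% of all genes and 32 of 64 subunits of complexes I, IV and V. Putting these complexes together was a choice made after the values were seen, and genes measured on the same 6 arrays are not independent, so no test is attached to the count. Of the 17 kept probes for these subunits, 16 were below 0. The median over the 12 was -0.12. Under the 9 other settings that give a value per gene it ran from -0.16 (median scaling) to -0.09 (array weights). With the mean of the kept probes it was -0.10. All 12 stayed below 0 under those 9 settings. The detection filters, the intensity trend and the replicate block reuse the main normalized values and gave the same median (-0.122). They are therefore no check on the sign. With 1 array left out the number below 0 was 10, 10, 10, 11, 11 and 12. SDHB, SDHC, UQCR11, UQCRC1 and UQCRQ were the subunits above 0 in one or other of those fits. Array by array, the median over the 12 of the deviation from the gene's vehicle mean was 0.06, 0.01 and -0.05 in the vehicle arrays and -0.11, -0.13 and -0.07 in the riluzole arrays. The vehicle values are centred near 0 by construction. Within complex II alone vehicle replicate 2 (-0.10), and within complex III vehicle replicate 3 (-0.10), lay among the riluzole arrays.

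**Figure D4:**
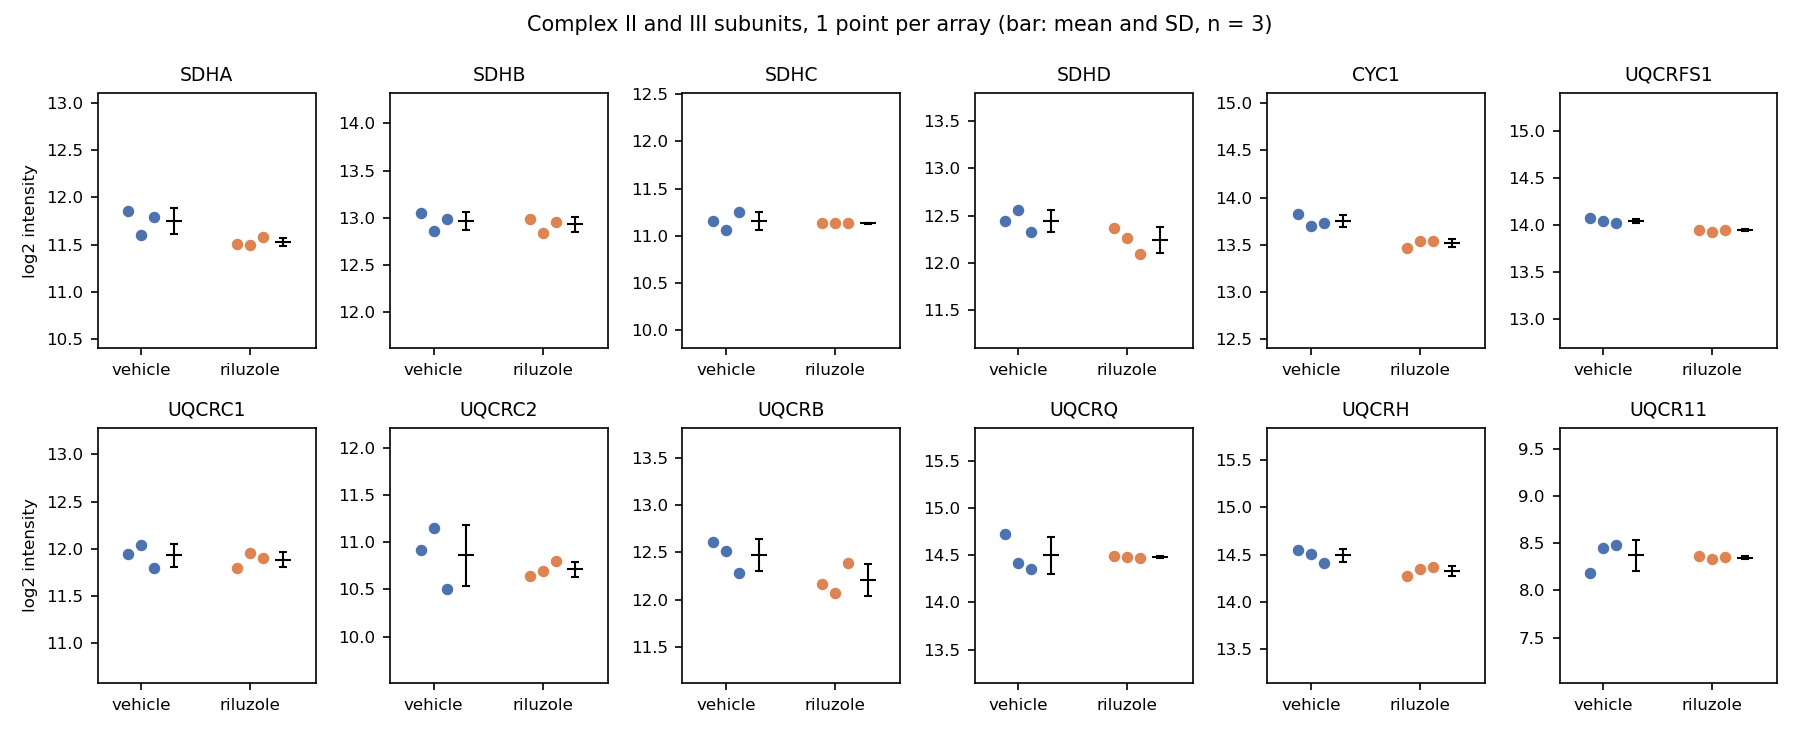
Log2 intensity on each array (vertical axis, 1 point per array, bars at the group mean with its SD) for the 12 member subunits of complexes II and III, vehicle beside riluzole, every panel spanning the same number of log2 units. The riluzole mean is the lower one in every panel, and the points of the groups are separate for SDHA, CYC1, UQCRFS1 and UQCRH.

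**Figure D5:**
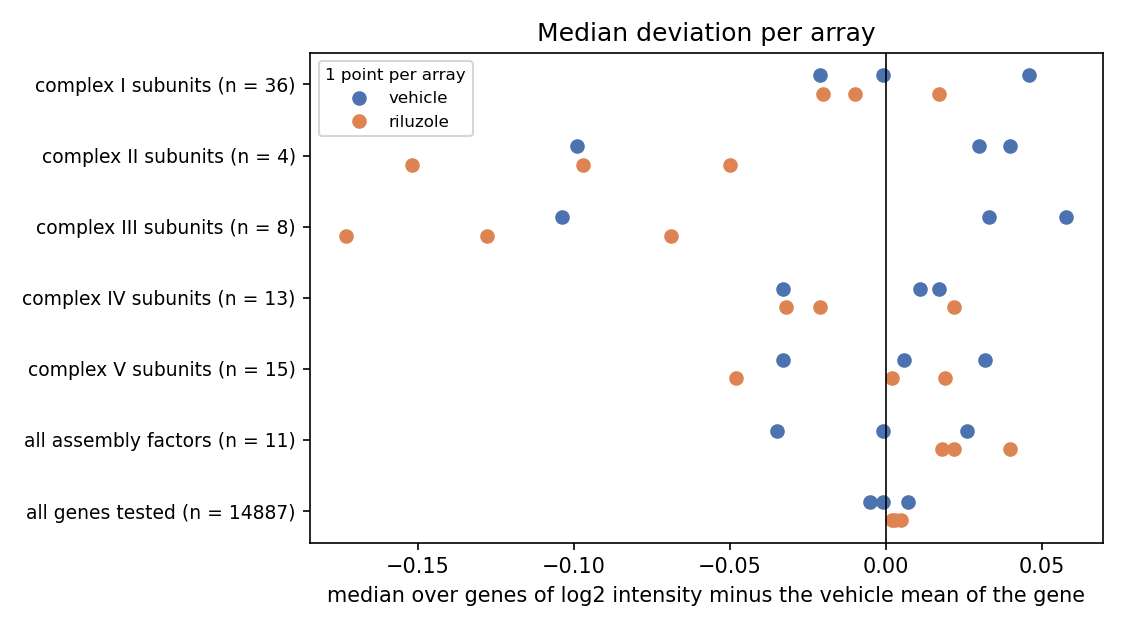
Median over the genes of each class of log2 intensity minus the gene's vehicle mean (horizontal axis), 1 point per array, vehicle above riluzole in each row. Complex II and complex III riluzole arrays lie between -0.17 and -0.05, overlapping the vehicle arrays through 1 vehicle array each, while complexes I, IV and V lie within 0.05 of 0 on all 6 arrays.

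CYCS, the soluble carrier between complexes III and IV and a trigger of apoptosis when it leaves the mitochondrion, gave a dim signal on this array. Its log2 intensity was 6.59, 6.58 and 6.32 with vehicle and 6.31, 6.51 and 6.48 with riluzole, overlapping groups with a difference of -0.07 (95% CI -0.34 to 0.21, adjusted p = 0.85).

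For complex IV, 13 of the 19 subunit genes and isoforms were above background, with changes from -0.10 to 0.24 and a median of -0.03. None passed (0 in limma, also 0 at an unadjusted p under 0.05), and all 13 intervals lay within 1.5-fold. COX4I1, the common form of the regulatory subunit 4, gave 13.99, 13.92 and 13.87 with vehicle and 13.80, 13.83 and 13.98 with riluzole, a difference of -0.05 (95% CI -0.29 to 0.18). COX5A, its neighbour in the complex, stood at -0.10 (95% CI -0.33 to 0.14), COX7C at -0.01 and NDUFA4, first ascribed to complex I and now placed in complex IV, at -0.05 (95% CI -0.30 to 0.19). COX7A2, the common form of subunit 7A, gave 14.51, 14.64 and 14.60 with vehicle against 14.67, 14.65 and 14.74 with riluzole. Its groups did not overlap, but the difference was 0.10 (95% CI -0.12 to 0.33, adjusted p = 0.664). COX7A2L, the related factor that joins complexes III and IV into a supercomplex, stood at 0.01 (95% CI -0.21 to 0.23).

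Isoforms of complex IV known from single tissues or from hypoxia were mostly below detection in both groups. COX4I2, the lung and hypoxia form of subunit 4, gave raw signals of 72.2 to 85.3 and COX7A1, the heart and muscle form of subunit 7A, 76.2 to 82.4. The hypoxia-inducible NDUFA4L2 (now COXFA4L2) gave 95.1 to 131.6. These, COX6A2, COX6B2 and COX8C were detected on 0 of 6 arrays, so no probe showed such an isoform above background with either treatment. The 1 isoform detected was COX7B2, a testis form of subunit 7B, at 6.65, 6.76 and 6.91 with vehicle and 6.84, 7.00 and 7.20 with riluzole, overlapping groups with a difference of 0.24 (95% CI -0.06 to 0.54, adjusted p = 0.412).

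Complex V, the ATP synthase, was measured by 15 subunits, 7 above 0 and 8 below, with a median of 0.00 and every interval within 1.5-fold. None passed in limma, and 1 had an unadjusted p under 0.05. In the catalytic head, ATP5F1A (alpha) stood at 0.00 (95% CI -0.24 to 0.24) and ATP5F1B (beta) at 0.10 (95% CI -0.18 to 0.37). The gamma and epsilon subunits of the rotating stalk lay lower. ATP5F1C (gamma) gave 13.09, 13.13 and 13.15 with vehicle and 12.94, 13.00 and 12.90 with riluzole, and ATP5F1E (epsilon) gave 13.15, 13.02 and 13.29 with vehicle against 12.90, 12.90 and 12.99 with riluzole. Neither pair of groups overlapped, and the differences of -0.18 (95% CI -0.40 to 0.04, adjusted p = 0.406) and -0.22 (95% CI -0.47 to 0.03, adjusted p = 0.364) did not pass. ATP5F1D (delta), of the same stalk, stood at 0.07.

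The c ring that turns as protons cross the membrane is built from a single protein made by 3 genes. ATP5MC1, the one known in mammals to vary with respiratory demand, gave 12.98, 12.91 and 12.99 with vehicle and 12.62, 12.68 and 12.83 with riluzole. The groups did not overlap, and the difference was -0.25 (95% CI -0.49 to -0.01, adjusted p = 0.277). Its second probe stood at -0.13 (95% CI -0.54 to 0.29). ATP5MC2 stood at -0.03 (95% CI -0.29 to 0.24) by its brightest probe and at -0.60 (95% CI -1.17 to -0.02, adjusted p over all probes = 0.304) by the other kept one, whose groups overlapped. ATP5MC3 stood at -0.07 (95% CI -0.35 to 0.21).

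Several genes had more than 1 kept probe, and these show how far a single value can be trusted. Pseudogenes aside, 20 members had several kept probes, and in 14 the probes had one sign. ATP5MG (-0.21 and 0.09) and the UQCRB probes above were among the 6 in which they did not. Of the 7 pseudogenes and copies, 6 were tested and 2 stood above 0. SDHAP1, an SDHA-like pseudogene with 13 probes on the array under the name SDHALP1, gave 11.22, 10.56 and 10.88 with vehicle and 11.48, 11.17 and 11.48 with riluzole at its brightest probe, a difference of 0.49 (95% CI 0.08 to 0.90, adjusted p = 0.219). Its 6 kept probes ran from -0.33 to 0.49, so the locus gave no single value, and its probes may share target RNA with SDHA and its other copies.

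Genes that work with the chain were read from 6 lists, none of which had a member past the threshold in limma. Of the 103 list genes tested, 16 (15.5%) had an unadjusted p under 0.05 in limma, against 16.3% of all genes. In the tricarboxylic acid cycle and pyruvate oxidation 27 genes were tested, 11 above 0 and 16 below, with a median of -0.02 and 2 at an unadjusted p under 0.05. PDK4, the kinase that shuts off pyruvate dehydrogenase, gave 6.45, 6.13 and 6.48 with vehicle and 7.30, 6.95 and 6.87 with riluzole, without overlap, and a difference of 0.69 (95% CI 0.34 to 1.04, adjusted p = 0.0791). IDH1, the cytosolic isocitrate dehydrogenase, stood at -0.30 (95% CI -0.57 to -0.04, adjusted p = 0.246). In electron entry outside complexes I and II, 6 genes were tested, 2 above 0, with a median of -0.05 and 3 at an unadjusted p under 0.05. The 2 were ETFB at 0.39 (95% CI 0.15 to 0.62, adjusted p = 0.122) and ETFDH at 0.33 (95% CI 0.08 to 0.57, adjusted p = 0.182), which carry electrons from fatty acid oxidation to ubiquinone, and for both the groups did not overlap. GPD2, also at an unadjusted p under 0.05, went the other way at -0.35 (95% CI -0.67 to -0.03, adjusted p = 0.263), likewise without overlap.

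Among 32 assembly factors that the symbol rule does not reach, 18 were above 0, the median was 0.01 and 4 had an unadjusted p under 0.05. NUBPL, which brings iron-sulphur clusters to complex I, gave 9.71, 9.46 and 9.40 with vehicle and 10.16, 9.91 and 10.05 with riluzole, without overlap, and a difference of 0.52 (95% CI 0.23 to 0.80, adjusted p = 0.098). COA5, a complex IV factor, stood at 0.39 (95% CI 0.14 to 0.64, adjusted p = 0.14), likewise without overlap. The other 2 of the 4 were lower with riluzole, also without overlap. COA4 stood at -0.31 (95% CI -0.53 to -0.08, adjusted p = 0.18) and TMEM70 at -0.25 (95% CI -0.49 to -0.005, adjusted p = 0.296). Of 13 genes of coenzyme Q synthesis and handling, 11 were above 0 with a median of 0.09 and 3 at an unadjusted p under 0.05. COQ10B, which binds coenzyme Q, stood at 0.37 (95% CI 0.10 to 0.65, adjusted p = 0.18) and PDSS1, which makes its side chain, at -0.34 (95% CI -0.61 to -0.08, adjusted p = 0.195).

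Regulators of mitochondrial biogenesis numbered 17, 11 above 0, with a median of 0.03 and 3 at an unadjusted p under 0.05. MYC stood at -0.32 (95% CI -0.58 to -0.06, adjusted p = 0.205) and YY1, a factor that binds some chain promoters, at -0.28 (95% CI -0.55 to -0.01, adjusted p = 0.291), both without overlap. Of 8 genes of coupling and inhibition 7 were below 0, with a median of -0.08 and 1 at an unadjusted p under 0.05. UCP2, an inner-membrane carrier, stood at -0.32 (95% CI -0.59 to -0.05, adjusted p = 0.22) and SLC25A4, an ADP/ATP carrier, at -0.18 (95% CI -0.48 to 0.11, adjusted p = 0.537). The subunits that mitochondrial DNA encodes have no probe on this array under those symbols, so they were not analysed here. A further 13 chain genes that only their present symbol would bring under the rule, such as NDUFAF4 at -0.23 and UQCR10 at -0.11, had a median of -0.06, with none past the threshold and 1 at an unadjusted p under 0.05.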

How the data were processed

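MDA-MB-231 RNA was hybridised to Illumina bead arrays, 3 per group. The deposited table without normalization gave, per the file headers, an average bead intensity and a detection p-value for each probe and array. The authors' processed intensity values served only as an alternative. Per the labels, RNA was labelled as biotinylated cRNA. The sources used here name neither the scanner software nor the authors' normalization. With limma 3.58.1 in R 4.3.3, intensities were corrected by normexp with negative-control parameters inferred from detection p-values (offset 16), quantile normalized and put on a log2 scale (neqc). Probes with detection p under 0.05 on at least 3 of 6 arrays were kept (20788), the brightest kept probe stood for a gene, and groups were compared with lmFit and eBayes, adjusted by Benjamini-Hochberg over 14887 genes at 0.05. Array symbols were updated through RefSeq names, which renamed 23 member symbols. NDUFA4 and COX11P kept the array's name. The fit was tested on simulated data.

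The members, complexes and lists were chosen with earlier results of these data known. Named were members past the threshold, in each complex and class the 3 smallest p-values and the brightest gene, a set of catalytic and paralogous members, and the 2 smallest p-values of each further list. Others were picked for their values. One named member is not reported here. Medians and non-overlap counts carry no test. Alternatives changed background correction, normalization, source values, detection filter, variance model, array weights, replicate block and probe choice, or left out 1 array. The number of arrays limit the precision.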

Additional observations from a re-analysis of the deposited data

How the results depend on the processing

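COX19 stayed higher in all 16 alternatives, and 24 of the 35 named members that were tested kept their sign in all of them. Not every alternative could change a sign. The detection filters, the intensity trend and the replicate block reuse the main normalized values. For COX19, with its 1 probe, so do the fits that change the probe choice. In those fits its direction was fixed, and only its adjusted p could move. The number of members past the threshold (1, COX19) was 2 with an intensity trend and robust variance, which added SDHAP1, and 0 with the replicate block or with any 1 array left out. COX19 was called in 9 of 10 settings that keep all arrays (adjusted p = 0.0686 with the block). The cause was not tested, but every left-out fit called fewer genes of all (21 to 41, against 176), as did the block (22). Over all genes the count was 563 without background correction, 94 with the authors' values, 70 without a detection filter, 360 with the stricter filter and 661 with the trend. Members with groups that do not overlap numbered 18 and, with 1 array left out, 20 to 32 (20.6% to 33.0% of members, against 30.6% to 34.9% of all genes). The lists of related genes, with 103 genes tested in the main fit, had 2 calls without background correction (ETFB, NUBPL). They had 2 with the stricter detection filter (NUBPL, PDK4) and 3 with the trend (COQ10B, ETFB, NUBPL). Over all genes these settings called 563 of 14887, 360 of 11870 and 661 of 14887. Median scaling moved the class medians to -0.023 (complex I), -0.076 (IV), -0.046 (V), -0.061 (all subunits) and 0.002 (assembly factors). The median over all genes was then -0.016, against 0.001 in the main fit. The authors' values gave -0.057 (IV) and -0.041 (all subunits), with -0.002 over all genes. The mean of the kept probes gave -0.189 (II), -0.038 (V) and -0.037 (all subunits). With 1 array left out the medians ran from -0.049 to 0.035 (V), -0.033 to -0.013 (all subunits) and -0.009 to 0.064 (assembly factors), so the sign of the V and assembly factor medians is not fixed. Same-numbered arrays deviated from their group means with correlations of -0.146, -0.105 and 0.001, and differently numbered ones with -0.06 to 0.15. These deviations are centred within each group, so the values cannot settle whether same-numbered samples were handled as pairs. At dim probes near the negative controls, such as those of COX19 and CYCS, the size depended on the background step. Without background correction COX19 went from 0.90 to 0.56 and CYCS from -0.065 to -0.032.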
